A study of Mus musculus with 12 samples.

Results

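The mouse myoblast line C2C12, from the strain C3H, was followed from confluence into differentiation after its Bach1 messenger had been silenced with a short interfering RNA (siRNA). The arrays compared were those labelled siBach1 and were chosen by that label alone. They were 6 of the 12 arrays of the series, 3 at day 0 and 3 at day 2. Cells were grown in medium with 10% fetal bovine serum and transfected with siBach1 or with a control siRNA, siControl. The change to medium with 2% horse serum came 24 h later and defined day 0, and the second harvest was made after 2 days in that medium. The remaining 6 arrays, 3 of siControl at day 0 and 3 at day 2, served to show where siBach1 cells differed, and also entered the filter on probes and the estimate of the spread. With the 6 siBach1 arrays alone, 3129 of 28892 tested probes were called higher and 2770 lower at day 2. All groups carried the unmodified genome of 1 cell line, so the model is a transient knockdown in cultured cells and not a deletion. The labels do not say whether the 3 samples of a group came from separate cultures, so p-values measure only the spread between these samples, which may be technical.

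Myoblasts leave the cell cycle, fuse with each other into multinucleated myotubes and assemble sarcomeres, the contractile units of striated muscle. MyoD and Myf5 mark the committed myoblast, and myogenin (Myog) and the Mef2 factors then switch on the genes of the differentiated fibre through E-box and Mef2 sequences. Bach1 is a haem-binding repressor that pairs with small Maf proteins on Maf recognition elements and keeps Hmox1, the gene of haem oxygenase 1, low.

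The target itself was checked first, in every array. Levels are given throughout as the log2 signal of a gene's probe relative to the 75th percentile of its array, so a level is compared only between arrays of the same probe. The Bach1 level was 1.73, 1.55 and 1.78 in siControl at day 0 and 2.56, 2.55 and 2.58 in siControl at day 2. The siBach1 levels were 0.18, -0.22 and -0.22 for day 0 and 0.57, 0.56 and 0.65 at day 2. All 6 siBach1 arrays lay below all 6 siControl arrays, and Bach1 remained well above the scanner's background on all 12. Within siBach1 cells the Bach1 level changed by 0.68 on the log2 scale from day 0 to day 2 (SE 0.11, adjusted p = 4.3e-04), which is under the 2-fold limit used here for a call. The Hmox1 level in siBach1 cells was 6.66, 6.74 and 7.02 on day 0 and 6.12, 6.0 and 6.18 on day 2. The siControl means of Hmox1 were 3.51 at day 0 and 2.97 at day 2, so Hmox1 was higher in every siBach1 array than in any siControl array on both days. The Hmox1 change within siBach1 cells was -0.71 (SE 0.14, adjusted p = 1.7e-03) and again under the 2-fold limit.

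The arrays held 56605 probes for genes and transcripts. Between 47.6% and 58.9% of them were well above background on a siBach1 array, and the siBach1 day 0 replicate 3 array had the lowest share. Arrays of the same siBach1 day correlated at 0.986 to 0.995 over the tested probes, and arrays of different days at 0.938 to 0.946. Testing was limited to the 29664 probes for which at least 1 group had all 3 arrays well above background. Day 0 and day 2 of siBach1 lay in different columns of the slides, so the column and the day cannot be told apart. A probe was called where limma's adjusted p was below 0.05 and the change at least 2-fold.

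Differentiation changed the siBach1 transcriptome widely. Of the tested probes, 3241 were called higher at day 2 (10.9%) and 2845 lower (9.59%). With 1 probe per gene, 1933 of 15773 genes were called higher (12.3%) and 1511 lower (9.58%). The values of the 2 days did not overlap for 18183 probes, which is 61.3% of those tested, so a lack of overlap alone is common here. In siControl cells 3115 probes were called higher (10.5%) and 2807 lower (9.46%). The median change over all tested probes was -0.068 in siBach1 cells and 0.003 in siControl cells on the log2 scale. Higher probes were 53.3% of the called siBach1 probes in the main analysis, 46.3% after another background correction (normexp) and 43.9% among probes well above background on all 6 siBach1 arrays. Of 348 called changes of genes in the lists and of other genes named, 81 were smaller by over 1.5-fold after normexp correction and 0 were larger by that much, so the sizes of these changes depend on the background correction.

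Myogenin, skeletal actin and atrogin-1, which stand for differentiation, contraction and protein turnover, all rose in siBach1 cells. The Myog level was 2.87, 2.56 and 2.19 at day 0 and 6.42, 6.33 and 6.18 at day 2. Every day 2 array lay far above every day 0 array, and the change was 3.77 on the log2 scale or 13.6-fold (SE 0.21, adjusted p = 3.6e-07). In siControl cells Myog rose by 4.85, and the difference between the changes was -1.08 (adjusted p = 0.071, or 0.012 with the replicate number as a block). The Acta1 level, of the skeletal muscle alpha-actin gene, was 4.27, 3.79 and 3.82 at day 0 and 8.22, 8.18 and 7.95 at day 2. The days did not overlap, and Acta1 rose by 4.16 or 17.9-fold (SE 0.17, adjusted p = 6.3e-08) against 4.52 in siControl cells. Fbxo32, which encodes the ubiquitin ligase subunit atrogin-1, was at -0.18, -0.45 and -0.22 at day 0 and at 2.69, 2.62 and 2.66 at day 2. It rose by 2.94 or 7.66-fold (SE 0.12, adjusted p = 5.1e-08) against 3.41 in siControl cells. The siControl means of Fbxo32 lay below the siBach1 levels on both days, at -1.52 on day 0 and 1.90 on day 2. The differences between siBach1 and siControl changes were -0.36 for Acta1 (adjusted p = 0.45) and -0.48 for Fbxo32 (adjusted p = 0.13), and neither was called. In bulk RNA, a different share of cells that differentiated and a different amount of RNA per cell cannot be told apart for these genes.

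**Figure D1:**
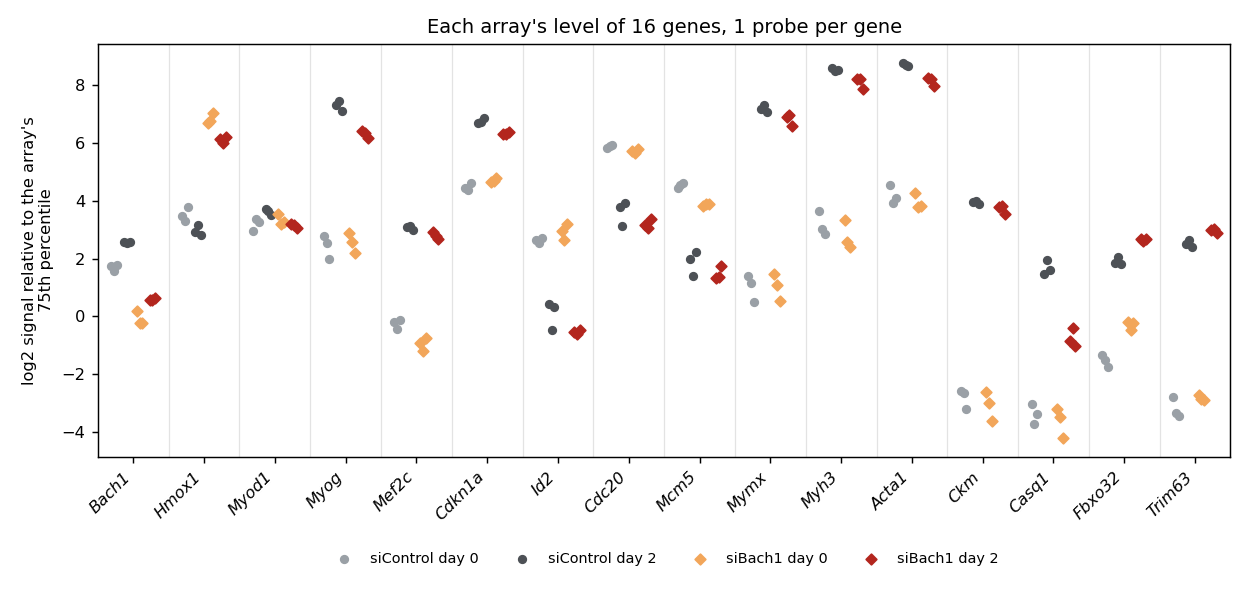
Levels of 16 genes on each of the 12 arrays, as log2 signal relative to the 75th percentile of the array, with siControl and siBach1 cells side by side at day 0 and day 2. Points are single arrays. Myog, Acta1 and Fbxo32 separate the days in both, while Bach1 separates the siRNAs on both days.

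The promoters of genes that moved together are shown because the letters that muscle and cell cycle factors are known to read can be seen in them. Each line gives the 250 bases before the start of the gene, taken from RefSeq (GRCm38.p6), 5′ to 3′ on the gene's strand. Capitals in the lines of Myog, Acta1 and Ckm mark E-boxes (CANNTG) and the MCAT element (CATTCC), which Tead factors bind. Capitals in those of Cdc20 and Mcm5 mark the cell cycle homology region (TTTGAA), E2F sites and CCAAT boxes. Myog lies at chr1:134289754-134290003 (+), Acta1 at chr8:123894776-123895025 (-), Ckm at chr7:19410844-19411093 (+), Cdc20 at chr4:118437344-118437593 (-) and Mcm5 at chr8:75109259-75109508 (+).
Myog: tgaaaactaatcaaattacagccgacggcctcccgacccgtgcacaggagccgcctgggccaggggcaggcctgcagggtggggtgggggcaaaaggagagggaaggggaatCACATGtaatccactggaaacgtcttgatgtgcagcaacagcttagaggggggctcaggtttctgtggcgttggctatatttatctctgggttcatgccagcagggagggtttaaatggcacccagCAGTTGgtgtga
Acta1: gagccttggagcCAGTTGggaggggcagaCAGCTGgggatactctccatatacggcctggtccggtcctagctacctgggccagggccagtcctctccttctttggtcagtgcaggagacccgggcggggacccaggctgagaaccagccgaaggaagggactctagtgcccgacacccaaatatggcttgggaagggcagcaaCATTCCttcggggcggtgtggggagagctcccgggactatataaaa
Ckm: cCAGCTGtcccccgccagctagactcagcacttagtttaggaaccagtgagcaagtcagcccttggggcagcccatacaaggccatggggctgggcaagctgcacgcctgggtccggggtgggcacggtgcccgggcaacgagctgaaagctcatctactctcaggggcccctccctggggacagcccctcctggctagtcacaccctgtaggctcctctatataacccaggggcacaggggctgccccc
Cdc20: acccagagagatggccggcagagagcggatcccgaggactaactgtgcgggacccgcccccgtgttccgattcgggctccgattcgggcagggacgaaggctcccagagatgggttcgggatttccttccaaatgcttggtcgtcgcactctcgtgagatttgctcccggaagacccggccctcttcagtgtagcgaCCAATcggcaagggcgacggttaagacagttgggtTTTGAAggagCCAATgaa
Mcm5: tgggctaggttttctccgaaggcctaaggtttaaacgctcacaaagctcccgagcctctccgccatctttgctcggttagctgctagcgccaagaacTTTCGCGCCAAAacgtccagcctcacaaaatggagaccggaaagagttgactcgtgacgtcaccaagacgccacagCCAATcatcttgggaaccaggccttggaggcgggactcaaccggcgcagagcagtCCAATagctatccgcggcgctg

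The Myog promoter held 2 E-boxes, at -138 to -133 and at -12 to -7 from the start. That of Acta1 held an E-box of the form CAGCTG at -221 and an MCAT element at -46, and Ckm held CAGCTG at -249. In Mcm5, TTTCGCGC at -153 overlaps a reverse-strand E2F match at -149. Over the 300 bases from 250 before to 50 after the start, on both strands, 87.3% of the 55 sarcomere genes that rose and have a promoter in the table held an E-box, against 72.1% of all 27025 promoters. CAGCTG, which is 1 form of the E-box, was held by 38.2% of these genes and 16.1% of all promoters, and CATTCC by 30.9% and 14.6%. TAAAAATA, the only form of the Mef2 sequence searched, was held by 7.27% of these genes and 2.71% of all promoters. Other forms were neither counted nor marked in the lines, so these shares do not give how many promoters hold a Mef2 sequence. Among 35 mitosis genes that fell, 77.1% held TTTGAA and 77.1% held CCAAT, against 18.1% and 37.9% of all promoters. Among 31 DNA replication genes that fell, 32.3% held an E2F site (TTTCGCGC, TTTGGCGC or TTTCCCGC) against 1.91% of all promoters. The Bach1 and Maf core GCTGAGTCA was in 0.426% of all promoters and in none of those of these 3 gene groups. A match is a description of letters in the window and not a binding site.

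Some gene lists moved nearly as a whole and others split. Of the sarcomere genes, 19 of 22 of the thick filament, 18 of 21 of the thin filament and 30 of 38 of the Z-disc and M-band rose, and 0 fell, against 12.3% and 9.58% of all tested genes. No gene of DNA replication or mitosis rose, and 38 of 40 and 43 of 44 fell. The regulatory lists held members called in both directions, and the medians of the myogenic factors and of their inhibitors were 0.21 and 0.27 against -0.063 over all tested genes.

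**Figure D2:**
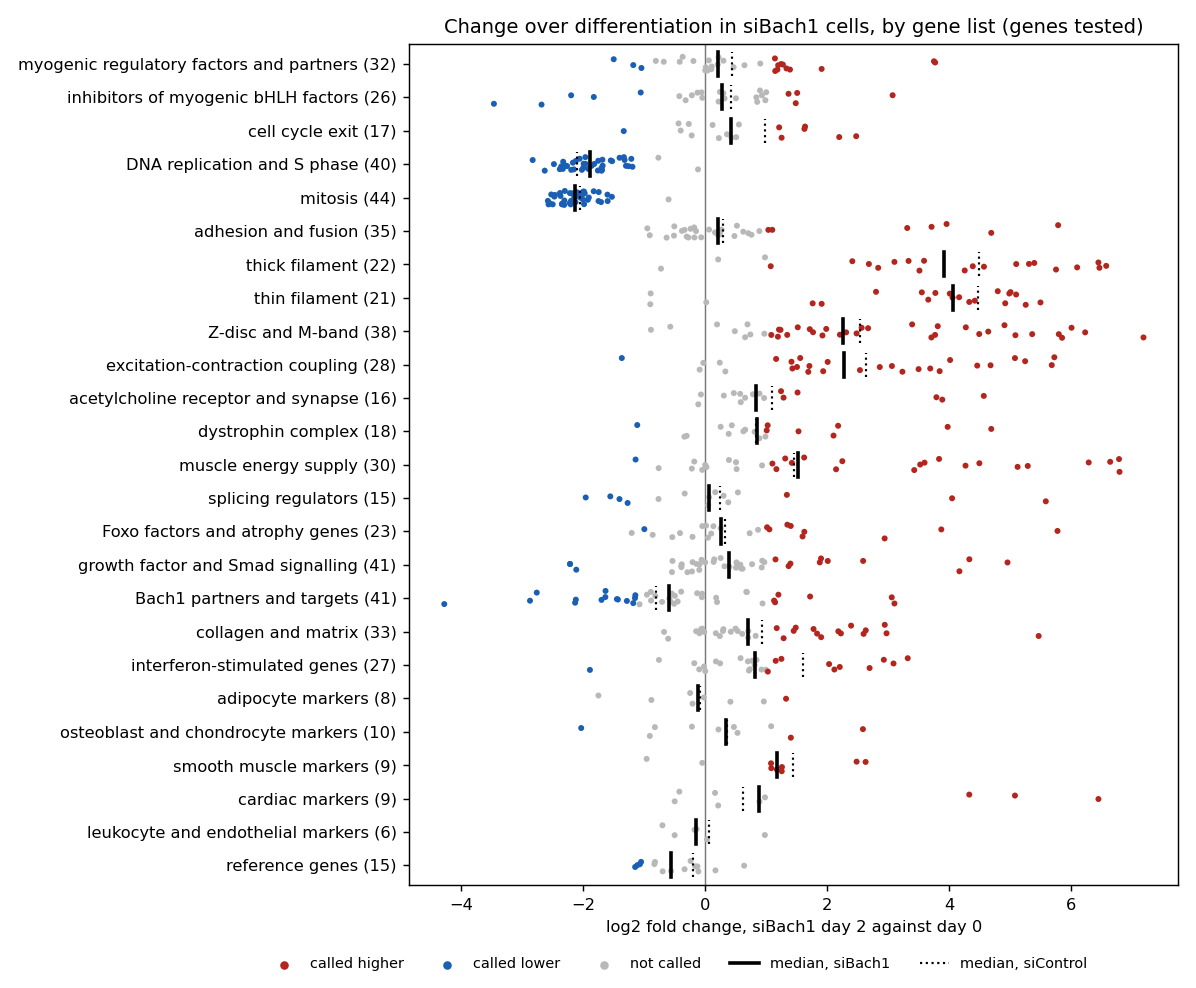
Change from day 0 to day 2 in siBach1 cells, in log2 units, of every tested gene (dots, red where called higher, blue where called lower and grey where not called) of 25 gene lists, with the list median as a solid line and the siControl median as a dotted line. Sarcomere lists have medians between 2.26 and 4.05, and DNA replication and mitosis have medians of -1.89 and -2.14.

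Transcription factors of the myogenic programme rose more often than they fell. Of 32 tested factors and partners, 11 rose, 3 fell and 18 were not called (12.3% and 9.58% of all tested genes rose and fell), so the share that fell was at the background, and 1 fell after quantile normalization. The list had a median change of 0.21 against 0.44 in siControl cells. Myod1, which defines the myoblast state, was at 3.55, 3.18 and 3.26 at day 0 and at 3.20, 3.15 and 3.06 at day 2. The days overlapped, and the change was -0.20 (SE 0.13, adjusted p = 0.22), or 0.017 after quantile normalization. In siControl cells it was 0.42, with a difference of -0.61 (adjusted p = 0.083). Mef2c, the partner of myogenin at muscle promoters, was at -0.92, -1.21 and -0.73 at day 0 and at 2.93, 2.79 and 2.67 at day 2. Its rise of 3.75 (SE 0.13, adjusted p = 3.0e-08) was the second largest of the list after Myog. Tead4, a reader of MCAT elements, rose by 1.90, and Mef2a and Mef2d rose by 1.14 and 1.18. Hes6, Zfp238 and Vgll3 rose by 1.14, 1.39 and 1.33. Myf6, the late factor MRF4, changed by 0.03 (adjusted p = 0.91), was well above background on 2 of 3 day 0 arrays, and took a value of -0.20 after quantile normalization. Myf5 was well above background on 2 arrays of each siBach1 day and was not tested. Six4, Tead1, Eya1 and Pax7 had changes of 0.10, 0.46, -0.81 and -0.68, and none was called.

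Vgll2, a muscle co-activator of Tead factors, went against its list. Its level was 5.87, 6.03 and 6.15 at day 0 and 4.72, 4.88 and 4.91 at day 2, a fall of 2.27-fold (log2 change -1.18, SE 0.10, adjusted p = 5.0e-06). In siControl cells the change was 0.11, and the difference of -1.29 was called (adjusted p = 0.0046). The siBach1 day 0 arrays were the highest of all 12 for this gene. The Vgll2 fall was no longer called after quantile normalization. Sox8 was at -2.58, -2.69 and -3.29 at day 0 and at -2.89, -2.98 and -2.69 at day 2. The days overlapped and the change of Sox8 was 0.00 (SE 0.33), while in siControl cells it rose by 2.28, and the difference of -2.28 was called (adjusted p = 0.026), as was that of -1.26 after normexp correction. The Sox8 difference was no longer called, at values of -2.26 to -2.14, without the siBach1 day 0 replicate 1 or 2, the siBach1 day 2 replicate 1 or 2 or the siControl day 2 replicate 1 or 3 array. Nfatc2 fell by 1.5 (just under 2-fold, and not called, after normexp correction), and Tcf3, which encodes the E-proteins E12 and E47 that pair with MyoD, fell by 1.05. The Tcf3 call was lost after quantile normalization and without the siBach1 day 0 replicate 3 or day 2 replicate 1 array (-1.0 and -0.97).

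Inhibitors of the myogenic factors were called in both directions. Id proteins bind E-proteins but not DNA, and Id1, Id2 and Id3 all fell. The Id2 level was 2.93, 2.64 and 3.20 at day 0 and -0.53, -0.62 and -0.48 at day 2. The days lay far apart, and Id2 fell by 3.47 on the log2 scale (SE 0.22, adjusted p = 6.5e-07). Id3 fell by 2.69 and Id1 by 2.20. Twist2, a bHLH repressor, fell by 1.83, and the Notch ligand gene Jag2 fell by 1.06 (0.98 in size, under the 2-fold limit, without the siBach1 day 2 replicate 3 array). In all, 5 of 26 tested genes of this list fell and 4 rose, against 9.58% and 12.3% of all tested genes, so the share that rose was near the background. Those that rose were Hdac9, a deacetylase that represses Mef2 (3.07), the Notch ligand Dll1 (1.5), the receptor Notch3 (1.48) and the Notch effector Heyl (1.36). The Heyl call was lost by the methods' t-test, within slide 1 and without the siBach1 day 0 replicate 3 array (0.92). Hey1, Notch1 and Msc had changes of -0.32, 0.98 and -0.43, and none was called. No gene of this list had a called difference from siControl.

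Among the genes of cell cycle exit, Rb1 and Cdkn1a rose. The Rb1 level, of the retinoblastoma gene that holds E2F factors in check, was 1.12, 0.80 and 0.61 at day 0 and 3.40, 3.31 and 3.24 at day 2. It rose by 2.47 or 5.55-fold (SE 0.12, adjusted p = 1.2e-07) against 1.88 in siControl cells. Cdkn1a, the inhibitor p21 of cyclin-dependent kinases, was at 4.64, 4.67 and 4.78 at day 0 and at 6.30, 6.29 and 6.36 at day 2. Its rise was 1.62 (SE 0.08, adjusted p = 2.1e-07) in siBach1 and 2.29 in siControl cells, with a difference of -0.67 (adjusted p = 0.017) that is under the 2-fold limit. Gadd45a, Ccnd3, Tob1 and Gas6 rose by 2.19, 1.63, 1.25 and 1.21, the last 0.80 and not called after normexp correction. Cdkn1c, the inhibitor p57, was at -2.42, -2.13 and -3.11 at day 0 and at -2.04, -2.22 and -1.88 at day 2. Its days overlapped in siBach1 cells and its change was 0.51 (adjusted p = 0.11), whereas in siControl cells it rose by 2.47. The difference of -1.96 for Cdkn1c was called (adjusted p = 0.016). The inhibitors Cdkn1b and Cdkn2c had changes of 0.35 and -0.44 and were not called. Rbl1, the pocket protein p107 of cycling cells, fell by 1.34. The list as a whole had 6 of 17 genes higher and 1 lower, against 12.3% and 9.58% of all tested genes.

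Genes of DNA replication and division fell almost without exception. Of 40 replication and S phase genes, 38 fell, with a median change of -1.89, and of 44 mitosis genes, 43 fell, with a median of -2.14, where 9.58% of all tested genes fell. The Mcm5 level, of a subunit of the replicative helicase, was 3.82, 3.89 and 3.89 at day 0 and 1.34, 1.36 and 1.74 at day 2. It fell by 2.39 on the log2 scale (SE 0.19, adjusted p = 2.5e-06). Cdc20, the activator of the anaphase-promoting complex, was at 5.70, 5.63 and 5.77 at day 0 and at 3.15, 3.07 and 3.38 at day 2, and it fell by 2.5 (SE 0.18, adjusted p = 1.3e-06). Neither gene had overlapping days. Kif23, a kinesin of cytokinesis, was at 2.21, 2.21 and 1.96 and then at -0.58, -0.49 and -0.28, and it fell by 2.58, although other probes of Kif23 reached 0.31. Birc5, Espl1, Mcm10 and Tk1 fell by 2.57, 2.55, 2.63 and 2.48. Ccne2, the late G1 cyclin E2, was not well above background on any siBach1 day 2 array, so its fall can only be bounded. It was at least 1.88-fold lower (means -3.70 and -6.53, adjusted p = 1.6e-05), and its change was -0.53 and not called after normexp correction. Such a bound sets the mean of the arrays that measured the gene against the lowest signal that counted as well above background on each array of the other day, or the probe's own signal where that was higher. The uncalled exceptions were E2f2 and Cdc45 in replication and Cdc25b in mitosis, with changes of -0.12 (0.16 after quantile normalization), -0.77 and -0.60. Cdc45, which is part of the active helicase with the Mcm proteins, was at 0.47, 0.18 and 0.13 and then at -0.46, -0.69 and -0.37. It fell by 1.93 in siControl cells, and the difference of 1.16 was called (adjusted p = 0.018). Another probe of Cdc45 fell by 1.70 in siBach1 cells, and the difference was no longer called without the siBach1 day 2 replicate 1 (1.14) or siControl day 2 replicate 2 (1.0) array, or after normexp correction (0.93).

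Both genes of the fusion machinery rose. The level of Mymk, which encodes the fusogen myomaker, was 1.59, 1.22 and 1.09 at day 0 and 5.37, 5.29 and 5.09 at day 2. It rose by 3.95 or 15.5-fold (SE 0.14, adjusted p = 3.2e-08) against 4.71 in siControl cells, with a difference of -0.76 (adjusted p = 0.064). Mymx, which encodes the small fusogen myomixer, was at 1.46, 1.07 and 0.52 and then at 6.87, 6.94 and 6.58. It rose by 5.78 or 55.0-fold (SE 0.26, adjusted p = 9.9e-08). The days of both were separated by more than 3 log2 units. Cav3, the muscle caveolin, was at -2.77, -2.83 and -2.47 and then at 2.26, 1.92 and 1.81. Its rise was 4.68 (SE 0.28) against 6.04 in siControl cells, with a difference of -1.35 (adjusted p = 0.083, or 0.033 with the replicate block). The membrane repair genes Dysf and Trim72 rose by 3.71 and 3.31, the latter well above background on 1 of 3 day 0 arrays. Flot1 and the adhesion gene Ncam1 rose by 1.10 and 1.03, the latter under 2-fold without the siBach1 day 0 replicate 2 array (0.98). Other adhesion molecules of the myoblast surface were not called. Cdh15 (M-cadherin), Cdh2 (N-cadherin), Itga7 and Itgb1 had changes of 0.21, 0.48, 0.88 and 0.62. Another probe of Itgb1 rose by 3.49. Of the whole adhesion and fusion list, 7 of 35 genes rose and 0 fell, against 12.3% and 9.58% of all tested genes.

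Sarcomere genes rose in both their motors and their scaffolds. The median changes were 3.92 for the thick filament, 4.05 for the thin filament and 2.26 for the Z-disc and M-band. The median of the Z-disc and M-band list became 2.09 with genes below background set to their bounds. The corresponding siControl medians were 4.48, 4.47 and 2.53. Among thick filament genes, the level of Myh3, the embryonic myosin heavy chain, was 3.34, 2.57 and 2.41 at day 0 and 8.21, 8.18 and 7.84 at day 2. It rose by 5.30 or 39.5-fold (SE 0.26, adjusted p = 1.4e-07) against 5.34 in siControl cells. Unc45b, the chaperone that folds myosin, was at -1.70, -2.17 and -2.39 and then at 4.41, 4.68 and 4.37, a rise of 6.57 or 94.9-fold. Both genes left no overlap between the days. Myh7, the slow myosin, rose by 5.09, Myl4, the embryonic light chain, by 6.09, and Mybph by 5.75. Myl2, the slow regulatory light chain, was at least 18-fold higher at day 2 (means -6.65 and -0.21, adjusted p = 4.7e-07). That bound was not kept after normexp correction, where the rise of Myl2 was 2.73 on the log2 scale. Mybpc2, the fast myosin-binding protein C, rose by 6.46 (3.5 after normexp correction, 7.11 without the siBach1 day 0 replicate 1 array) and was well above background on 1 of 3 day 0 arrays. Myh1, an adult fast myosin, rose by 3.1 against 4.13 in siControl cells (difference -1.04, adjusted p = 0.19, or 0.026 with the replicate block). Mylk2, the skeletal myosin light chain kinase, had a change of -0.73 and was not called.

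In the thin filament, Tnnt3, the fast troponin T, was at 2.47, 2.09 and 2.10 at day 0 and at 7.78, 7.80 and 7.56 at day 2. Its rise of 5.49 or 45-fold (SE 0.16, adjusted p = 1.4e-08) stood beside 5.71 in siControl cells. Neb, the nebulin ruler of the filament, rose by 5.25, and Tnnc1, the slow troponin C, by 5.09. Tnni3, the cardiac form of troponin I, rose by 4.32 against 2.80 in siControl cells (difference 1.52, adjusted p = 0.25, or 0.013 with the replicate block). It was well above background on 2 of 3 day 0 arrays. Tropomyosin probes disagreed within a gene, from -2.22 to 1.76 for Tpm1 and from -1.30 to 3.16 for Tpm3, and the gene counts follow the brightest probe.

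At the Z-disc, Ankrd2, a stretch-responsive ankyrin repeat protein, was at -2.24, -2.94 and -2.60 at day 0 and at 4.75, 4.75 and 4.27 at day 2. It rose by 7.18 or 145-fold (SE 0.29, adjusted p = 5.0e-08), or by 6.06 after normexp correction. Myoz2, the calcineurin-binding calsarcin-1, rose by 6.0. Actn2 rose by 5.08 against 6.31 in siControl cells (difference -1.22, adjusted p = 0.085, or 0.022 with the replicate block). The intermediate filament gene Synm, which encodes synemin, set siBach1 cells apart. It was at -4.94, -4.84 and -5.22 at day 0, on no array well above background, and at -1.29, -1.03 and -1.57 at day 2, on all 3. In siControl cells Synm was at means of -4.92 and -4.97 on the 2 days and was well above background on 1 of the 6 arrays. The siBach1 rise was at least 8.46-fold (adjusted p = 2.6e-07). That bound was not kept after normexp correction, where the rise of Synm was 1.55 on the log2 scale. The Synm difference of 3.75 in measured values was called (adjusted p = 8.4e-04), as was that of 1.30 after normexp correction. Obsl1, a cytoskeletal adaptor, was at 1.48, 1.38 and 1.41 and then at 2.85, 2.73 and 2.71. It rose by 1.34 against a change of 0.19 in siControl cells, and the difference of 1.15 was called (adjusted p = 0.0079). Pdlim3, the actinin-binding protein ALP, went the other way. It was at 5.52, 5.56 and 5.28 and then at 5.90, 6.01 and 5.89, a change of 0.48 that was not called, while it rose by 1.97 in siControl cells. The difference for Pdlim3 was -1.48 (adjusted p = 0.0029), although another probe of the gene rose by 1.55 in siBach1 cells.

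**Figure D3:**
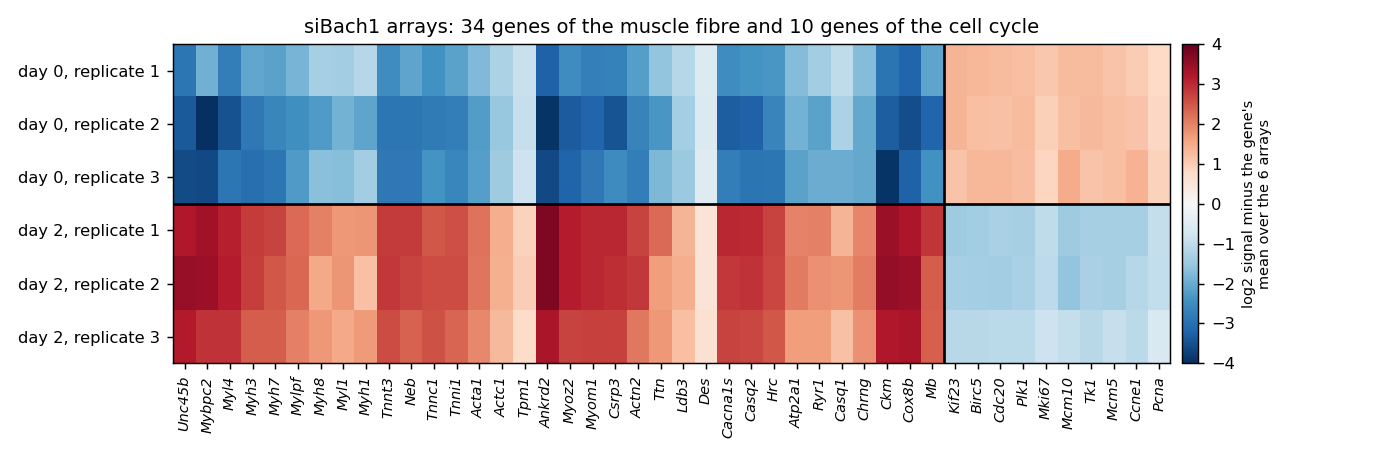
Deviation of each level from the gene's own mean over the 6 siBach1 arrays, in log2 units from -4 (blue) to 4 (red), for 34 muscle genes and 10 cell cycle genes. Rows are single arrays and columns are genes. The muscle genes plotted are blue on the 3 day 0 arrays and red on the 3 day 2 arrays, and the cell cycle genes plotted are the other way round.

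Excitation-contraction coupling genes rose in 23 of 28 cases (12.3% of all tested genes), with a median of 2.27 against 2.63 in siControl cells. The level of Cacna1s, the voltage sensor of the T-tubule, was 0.64, -0.17 and 0.35 at day 0 and 6.15, 5.97 and 5.85 at day 2. It rose by 5.72 or 52.7-fold (SE 0.22, adjusted p = 4.0e-08) against 5.73 in siControl cells. Casq2 and Hrc, which bind calcium in the sarcoplasmic reticulum, rose by 5.68 and 5.24. Casq1, the fast-fibre calsequestrin, was at -3.20, -3.47 and -4.19 at day 0, on 2 arrays well above background, and at -0.84, -0.42 and -1.03 at day 2. The days of Casq1 did not overlap, but its rise of 2.86 (SE 0.27, adjusted p = 9.1e-06, or 1.52 after normexp correction) was less than the 5.05 of siControl cells, and the difference of -2.19 was called (adjusted p = 0.016). Pvalb, the calcium buffer parvalbumin, was at -2.01, -2.04 and -2.40 and then at -0.67, -0.50 and -0.78. It rose by 1.5 against 2.64 in siControl cells, and the difference of -1.14 was called (adjusted p = 0.015), but not after normexp correction (-0.96). Sln, the calcium pump regulator sarcolipin, was at least 7.15-fold higher at day 2 (means -6.61 and -1.54, adjusted p = 4.3e-05). That bound was not kept after normexp correction, where the rise of Sln was 1.74 on the log2 scale. In siControl cells Sln had means of -6.07 and -4.29, and the difference in measured changes was 3.30 (adjusted p = 0.056, or 0.030 with the replicate block), and 1.27 and called after normexp correction (adjusted p = 0.0037). Popdc2 rose by 1.70 against 2.78 in siControl cells (difference -1.07, adjusted p = 0.062, or 0.040 with the replicate block), and its change was 0.84 and not called after normexp correction. Asph, the aspartyl hydroxylase whose locus also encodes junctin, fell by 1.37, while another of its probes rose by 1.15. The probes of Ryr1, the calcium release channel, ranged from -0.25 to 3.68.

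Of 16 genes of the acetylcholine receptor and the synapse, 6 rose and 0 fell (12.3% and 9.58% of all tested genes), with a median of 0.83 against 1.08 in siControl cells. The level of Chrng, the embryonic gamma subunit of the acetylcholine receptor, was 3.93, 3.63 and 3.62 at day 0 and 7.62, 7.70 and 7.51 at day 2, a rise of 3.88 (SE 0.14, adjusted p = 3.0e-08). Chrne, the adult epsilon subunit, had a change of 0.65 and was not called, nor were Chrna1 (0.89) and the receptor kinase gene Musk (0.47). Colq, the collagen tail of acetylcholinesterase, rose by 4.56, and the neuregulin receptor gene Erbb3 by 3.79. Dok7, the cytoplasmic activator of MuSK, was at 3.80, 3.88 and 3.90 at day 0 and at 3.87, 3.62 and 3.74 at day 2. Its days overlapped, and the change was -0.12 (0.12 after quantile normalization) against a rise of 1.26 in siControl cells. The Dok7 difference of -1.38 was called (adjusted p = 0.0046). In the dystrophin complex, 7 of 18 genes rose and 1 fell (12.3% and 9.58% of all tested genes), and the median was 0.85. The sarcoglycan gene Sgca rose by 2.18. Dtnb, which encodes beta-dystrobrevin, fell by 1.12, a call that was lost after normexp correction and without the siBach1 day 0 replicate 3 or day 2 replicate 2 array (-0.98 and -0.90).

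Energy supply genes of muscle rose in 19 of 30 cases, against 12.3% of all tested genes. The level of Ckm, the muscle creatine kinase, was -2.62, -2.99 and -3.62 at day 0 and 3.77, 3.81 and 3.52 at day 2. It rose by 6.78 or 110-fold (SE 0.24, adjusted p = 3.0e-08), or by 5.55 after normexp correction, against 6.75 in siControl cells. Art1, an ADP-ribosyltransferase of muscle, rose by 6.79, and the muscle cytochrome oxidase subunit genes Cox8b and Cox6a2 rose by 6.63 and 6.28. The list median was 1.52, or 1.29 with genes below background at their bounds. A pair of genes of fuel uptake rose more in siBach1 than in siControl cells. Slc2a4, the insulin-responsive glucose transporter GLUT4, was at -2.86, -2.80 and -3.22 and then at 1.31, 1.52 and 1.08. It rose by 4.26 (SE 0.23, adjusted p = 2.9e-07), or by 3.04 after normexp correction, against 2.41, and the difference of 1.85 was called (adjusted p = 0.017). Lpl, the lipoprotein lipase that releases fatty acids, was at 2.01, 1.80 and 1.93 and then at 2.90, 3.07 and 3.26. It rose by 1.16 (SE 0.10) against a siControl change of -0.12, and the difference of 1.28 was called (adjusted p = 0.0046). The siBach1 day 2 arrays of Lpl were the highest of the 12. Art3 fell by 1.14 against the direction of its list, or by 0.90 and uncalled after normexp correction.

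Splicing regulators changed in both directions. Ptbp1, the repressor of muscle and neuronal exons, was at 4.52, 4.48 and 4.82 at day 0 and at 2.59, 2.5 and 2.84 at day 2, and it fell by 1.96 (SE 0.15, adjusted p = 2.6e-06). Srsf10, Mbnl3 and Ptbp2 fell by 1.56, 1.41 and 1.27. Rbfox1, a muscle and brain splicing factor well above background on 2 of 3 day 0 arrays, rose by 5.58. Rbm24 and Rbm20, which act on sarcomere transcripts, rose by 4.04 and 1.33. Of 15 genes 3 rose and 4 fell, against 12.3% and 9.58% of all tested genes, and no difference from siControl was called.

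Trim63 and Fbxo40, ubiquitin ligase genes of muscle, rose beside Fbxo32. Trim63, which encodes MuRF1, was at -2.71, -2.86 and -2.88 at day 0 and at 2.97, 3.03 and 2.86 at day 2. It rose by 5.77 or 54.6-fold (SE 0.15, adjusted p = 1.4e-08) against 5.69 in siControl cells. Fbxo40, the ligase subunit of IRS1, was at least 4.76-fold higher (means -5.99 and -2.13, adjusted p = 4.2e-06). That bound was not kept after normexp correction, where the rise of Fbxo40 was 1.02 on the log2 scale. Its siControl means were -6.11 and -4.55, and the difference of 2.30 in measured changes was called (adjusted p = 0.024). It was 0.52 and not called after normexp correction, was not called after quantile normalization (2.23, adjusted p = 0.056), and was not called at 2.19 to 2.31 without the siBach1 day 2 replicate 1 or 3 or the siControl day 0 replicate 1 or 2 array. Foxo6 and Foxo3, from the family that drives these ligases, rose by 1.62 and 1.01, and Foxo1 had a change of 0.86 that was not called. The Foxo3 call was lost after normexp correction and without the siBach1 day 0 replicate 1 or 2 or day 2 replicate 1 or 3 array (0.96 to 0.99). Txnip, Sesn1 and Sesn3 rose by 1.59, 1.40 and 1.34. Ddit4, an mTORC1 inhibitor, fell by 1.0, a call at the 2-fold limit that was lost after normexp correction, after quantile normalization and without the siBach1 day 0 replicate 2 or 3 or day 2 replicate 1 or 2 array (-0.99 to -0.92). The metallothionein genes Mt1 and Mt2 and the ligase gene Traf6 had changes of -1.21, -0.86 and -0.42 and were not called, though Mt1 was after normexp correction (-1.24, adjusted p = 0.047). Of the 23 genes of this list 9 rose and 1 fell, against 12.3% and 9.58% of all tested genes.

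Among growth factors, the autocrine ligand gene Igf2 was at -2.32, -3.79 and -4.77 at day 0, on 2 arrays well above background, and at 1.04, 1.11 and -0.05 at day 2. The days did not overlap although the day 0 arrays were widely spread. Igf2 rose by 4.33 (SE 0.54, adjusted p = 6.0e-05) against 6.54 in siControl cells. The rise was 2.83 after normexp correction and 4.98 without the siBach1 day 0 replicate 1 array. The Igf2 difference of -2.21 was not called (adjusted p = 0.12), but was with the replicate block (0.027) and after normexp correction (-1.88, adjusted p = 0.012), and ran from -2.79 to -1.56, uncalled, with 1 array left out. Fst, the myostatin antagonist follistatin, rose by 4.16. Fgf21 rose by 4.95 against 6.21 (difference -1.26, adjusted p = 0.27, or 0.041 with the replicate block). Met, the hepatocyte growth factor receptor of myoblasts, Grem1 and Igfbp2 fell by 2.22, 2.22 and 2.12. Igfbp3, an IGF carrier, was at 0.71, 0.90 and 0.57 and then at 0.18, 0.13 and 0.26. Its change of -0.54 was not called, while it rose by 1.27 in siControl cells, and the difference of -1.81 was called (adjusted p = 0.0052). The brightest Igf1 probe had a change of -0.39, but other Igf1 probes reached 4.83. Of 41 genes 10 rose and 3 fell, against 12.3% and 9.58% of all tested genes.

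Bach1 partners and antioxidant targets fell more often than they rose. Of 41 tested genes, 14 fell and 6 rose, where 9.58% of all tested genes fell and 12.3% rose, so the share that rose was near that of all genes. The list median was -0.59 against -0.81 in siControl cells. In siBach1 cells the median was -0.063 over all tested genes and -0.56 over the 15 reference genes, so the list median was near that of the reference genes. The falls of Ftl1, Gsr, Txn1 and Txnrd1 were no longer called after quantile normalization (-0.95, -0.94, -0.78 and -0.92). Nqo1, a quinone reductase, was at 2.27, 2.40 and 2.66 at day 0 and at -1.91, -2.14 and -1.46 at day 2, and it fell by 4.28 (SE 0.17, adjusted p = 4.8e-08) against -3.99 in siControl cells. G6pdx and Srxn1 fell by 2.76 and 2.12. The glutathione transferase gene Gsta2 was at 3.81, 4.37 and 3.79 and then at 0.85, 1.42 and 1.08. It fell by 2.87 (SE 0.21) against a siControl change of -6.31, and the difference of 3.43 was called (adjusted p = 0.0016), as was that of 2.75 after normexp correction. Gsta4 fell by 2.14 against a siControl change of -3.14, with a called difference of 1.0 (adjusted p = 0.016) that was under the limit, at 0.90 to 0.99, without the siBach1 day 0 replicate 1 or 3, the siBach1 day 2 replicate 3, the siControl day 0 replicate 2 or the siControl day 2 replicate 1 or 3 array, and 0.96 after normexp correction. Mgst2, a membrane glutathione transferase, was at 3.35, 3.67 and 3.45 and then at 4.38, 4.65 and 4.25. Its change of 0.94 missed the 2-fold limit, while it fell by 1.91 in siControl cells, and the difference of 2.84 was called (adjusted p = 0.0050). Hba-a1, an alpha-globin gene, was at 3.75, 3.73 and 3.72 and then at 4.73, 5.04 and 4.81. It rose by 1.13 (SE 0.13, adjusted p = 3.5e-05) and fell by 1.34 in siControl cells, and the difference of 2.47 was called (adjusted p = 8.4e-04). The day 2 arrays of siBach1 were the highest of the 12 for Hba-a1 and those of siControl the lowest. The near-identical copy Hba-a2 had a difference of 2.5, and the probes may not tell the copies apart. Ucp2, Slc40a1 (the iron exporter ferroportin) and Nfe2l1 rose by 3.1, 1.72 and 1.2, and Bach2, the relative of Bach1, was at least 1.94-fold higher (adjusted p = 2.2e-05), a call that was lost after normexp correction (0.62).

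Matrix genes rose beside the muscle genes, with 15 of 33 higher and 0 lower, against 12.3% and 9.58% of all tested genes. Dcn, which encodes the proteoglycan decorin, rose by 5.46 from levels of 0.40, -0.04 and -0.18 to 5.57, 5.46 and 5.55. Lum (lumican) was at least 2.52-fold higher, and Col1a1 rose by 2.94. The Lum change was 0.59 and not called after normexp correction. Ctgf (Ccn2), a matrix-associated growth factor, rose by 2.39 against 0.93 in siControl cells (difference 1.45, adjusted p = 0.099, or 0.016 with the replicate block). Of 27 tested interferon-stimulated genes 10 rose and 1 fell (12.3% and 9.58% of all tested genes), with a median of 0.81 against 1.60 in siControl cells. Oasl2 rose by 3.32, Gbp2 by 2.92, and Mx2 was at least 2.55-fold higher, while Oasl1 fell by 1.89. After normexp correction the Oasl1 and Mx2 changes were -0.63 and 0.71 and neither was called. The Bst2, Ifit3 and Psmb8 calls were also lost after that correction, at 0.91, 0.42 and 0.60. Irf7 rose by 2.03 against 3.30 (difference -1.28, adjusted p = 0.059, or 0.043 with the replicate block). Oas1a, an antiviral oligoadenylate synthase, was well above background on 1 of 3 arrays of each siBach1 day, with a change of -0.18 against a rise of 2.81 in siControl cells (difference -2.99, adjusted p = 0.041, or -1.27 and called after normexp correction). With 1 array left out the Oas1a call held only where that array was siBach1 day 2 replicate 3 or siControl day 0 replicate 1, and it was lost, at -3.18 to -2.55, without each of the others. The chemokine gene Ccl5 had a change of 0.73 against 2.38 (difference -1.65, adjusted p = 0.043). The Ccl5 call held without the siBach1 day 0 replicate 3 or the siControl day 2 replicate 1 array and was lost, at -1.74 to -1.38, without each of the others.

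Among markers of other lineages, those of smooth muscle, several of which myoblasts also express, rose in 7 of 9 cases (12.3% of all tested genes), led by Mylk (2.63, or 1.45 after normexp correction and 3.26 without the siBach1 day 0 replicate 1 array) and Synpo2 (2.48), and their summed level went from between 7.79 and 8.53 at day 0 to between 9.22 and 9.53 at day 2. Of 9 tested cardiac markers 3 rose, namely Myl2, Sln and Tnni3 (12.3% of all tested genes rose), or 5 without the siBach1 day 0 replicate 3 or day 2 replicate 2 array, and the summed level of the list was at most 2.48. Nppb, a natriuretic peptide gene, had a change of 0.89 against -0.31 in siControl cells, with a called difference of 1.19 (adjusted p = 0.031). The Nppb difference was not called, at 1.03 to 1.28, without the siBach1 day 0 replicate 2, the siBach1 day 2 replicate 1 or 3, any siControl day 0 array or the siControl day 2 replicate 1 or 2 array, or after normexp correction (0.97). Of 10 osteoblast and chondrocyte markers 2 rose and 1 fell, against 12.3% and 9.58% of all tested genes. Bglap (osteocalcin) rose by 2.58 against 0.89 in siControl cells (difference 1.69, adjusted p = 0.068, or 0.029 with the replicate block), and Phex, a bone endopeptidase, fell by 2.04. Col10a1 rose by 1.40, a call that was lost in 11 alternative analyses, 6 of them with 1 array left out (0.95 to 1.58). Of 8 adipocyte markers 1 rose, a share near the 12.3% of all tested genes. It was Cebpa, with a change of 1.32 that became 0.57 and was not called after normexp correction, while Pparg, Fabp4 and Plin1 had changes of -0.89, -1.75 and 0.96 that were not called. None of 6 tested leukocyte and endothelial markers was called, and Itgam, Ptprc and Cd68 had changes of 0.97, -0.70 and -0.50. The part of these cell types in the muscle gene changes was not tested. Of 15 reference genes 4 fell, where 9.58% of all tested genes did, among them Tfrc, Hprt and Polr2a by 1.11, 1.07 and 1.05, and none of the 4 calls held after quantile normalization. That of Polr2a was also lost without the siBach1 day 0 replicate 3 (-0.96) or day 2 replicate 2 (-0.99) array.

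The largest rise of any gene measured on all 6 arrays was that of Dhrs7c, a sarcoplasmic reticulum dehydrogenase, from -2.55, -3.20 and -3.17 to 4.61, 4.75 and 4.49. It rose by 7.59 or 192-fold (SE 0.22, adjusted p = 1.4e-08), or by 6.42 after normexp correction. In siControl cells Dhrs7c rose by 6.62, and the difference of 0.97 was not called (adjusted p = 0.10). Another Dhrs7c probe was not well above background on any day 0 array. In measured values that probe rose by 8.60 against 6.72 in siControl cells, and the difference of 1.88 was called (adjusted p = 0.043). The next were Ankrd2, Art1, Ckm, Fn3k (6.75), Cox8b, Tceal5 (6.59), Unc45b, Cox6a2 and Myl4. Of these 10 genes, 7 belong to the sarcomere and energy lists, which were chosen with earlier results of these data known. The count includes the ADP-ribosyltransferase gene Art1, which was placed in the energy list. The largest fall was that of Slco4a1, an organic anion transporter, from 2.17, 2.17 and 2.34 to -3.48, -3.77 and -3.01, a fall of 5.65 (SE 0.30, adjusted p = 2.3e-07). Prr9 fell by 5.49, the prolactin family genes Prl2c3, Prl2c5 and Prl2c1 by 5.30, 5.07 and 4.86, and 1700012B09Rik by 3.74. The Prl2c genes are near-identical, and their probes may share signal. Fosl1, an AP-1 subunit of proliferating myoblasts, fell by 3.62, and the integrin gene Itgb7 by 3.26. Nqo1 and Id2 complete the 10 largest falls. Beyond these, 626 probes (525 genes) went from no array well above background at day 0 to all 3 at day 2, and 101 probes (84 genes) went the other way. The corresponding counts in siControl cells were 341 and 205, and 219 and 51 probes were shared.

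Most of the programme was common to both siRNAs. Of the siBach1 probes called higher, 73.6% were also called higher in siControl cells, and these 2386 probes were 76.6% of the siControl calls. Of those called lower, 2080 were shared, which is 73.1% of the siBach1 and 74.1% of the siControl calls. The siBach1 and siControl changes come from different arrays on the same slides and correlated at 0.901 over the 29664 probes, which are not independent replicates. The change differed between siRNAs for 291 probes in favour of siBach1 (0.981%) and for 136 in favour of siControl (0.458%). By gene, 185 of 15773 (1.17%) and 90 (0.571%) were called. These counts moved with the arrays used. Without the siBach1 day 2 replicate 1 array they were 164 and 82 probes, and without the siControl day 0 replicate 1 or 3 array 193 or 189 were in favour of siBach1, and without the siControl day 0 replicate 2 array 89 in favour of siControl. Of 33 called differences of named genes, 20 were no longer called without the filter on dim probes and 21 within slide 1, and 13 were smaller by over 1.5-fold after normexp correction. With the replicate number as a block they were 432 and 196 probes. Among the 6086 probes called in siBach1 cells, 235 also had a called difference, which is 3.86%.

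The called differences had several shapes. Of the 291 probes with the larger siBach1 value, 146 rose, 25 fell and 120 were not called in siBach1 cells. Of the 136 with the smaller value, 30 rose, 34 fell and 72 were not called. Only 3 probes rose in siBach1 and fell in siControl cells as called, and 0 the reverse. Among the lists of contraction, membrane and energy supply the genes with called differences were Synm, Obsl1, Slc2a4 and Lpl in favour of siBach1 and Pdlim3, Casq1, Pvalb and Dok7 in favour of siControl. Of these 8, the calls of Obsl1, Slc2a4, Casq1 and Pvalb were lost both without the filter on dim probes and within slide 1, and those of Lpl and Dok7 within slide 1. Among the regulators they were Vgll2, Sox8 and Cdkn1c, whose siBach1 changes were all below those of siControl. All 3 calls were lost within slide 1 (adjusted p = 0.056, 0.067 and 0.062), and those of Sox8 and Cdkn1c also without the filter (0.11 and 0.083). Outside the lists the largest called differences included Npr3, a natriuretic peptide clearance receptor, at 3.37 and Hpgd, which degrades prostaglandins, at 3.29. Hpgd was not well above background on any siControl day 2 array, so this is a difference between measured values, and it was 0.87 and not called after normexp correction. Npr3 was at -2.55, -2.79 and -2.43 at day 0 and at -2.03, -2.73 and -1.47 at day 2 of siBach1, with overlap, while it fell by 2.86 in siControl cells. The Npr3 difference was 1.45 after normexp correction.

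**Figure D4:**
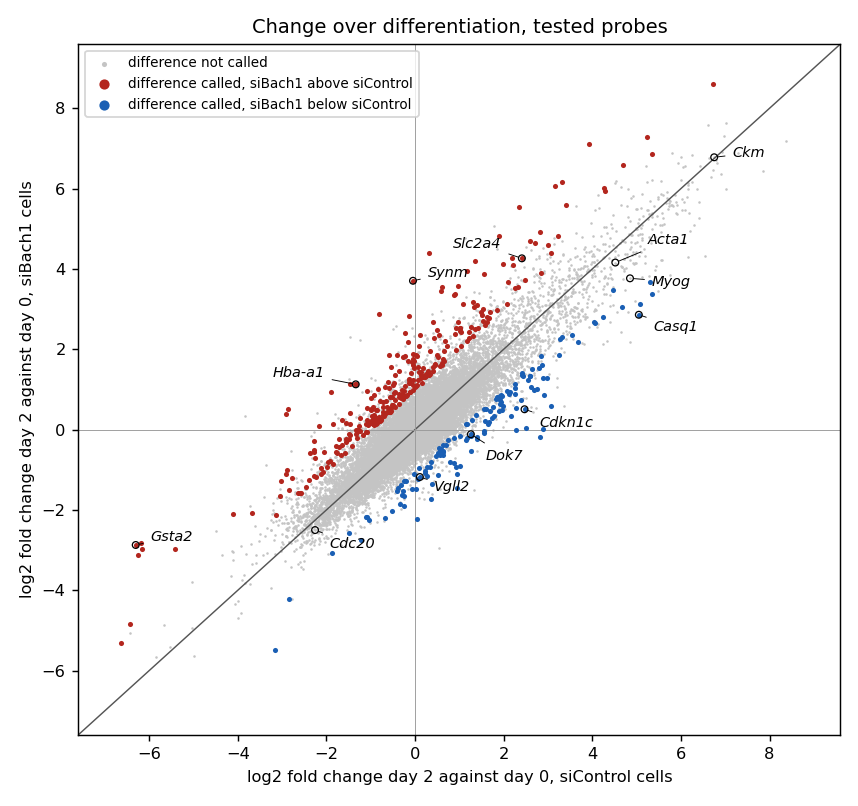
Change from day 0 to day 2 in siBach1 cells (vertical axis) against that in siControl cells (horizontal axis), both in log2 units, for the 29664 tested probes, with called differences in red (siBach1 above siControl) or blue (below) and named genes circled. Most probes lie along the diagonal. Synm, Slc2a4 and Hba-a1 lie above it and Casq1, Cdkn1c, Dok7 and Vgll2 below it.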

How the data were processed

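Total RNA of C2C12 cells was labelled with Cy3 and hybridised to 12 one-colour Agilent mouse arrays, 3 per group. The authors deposited each array's scan, from which the background-subtracted spot intensity and the flags for outlier, saturated and well-above-background spots were used. The scanner software is given as Agilent Feature Extraction 9.1 in the submitters' processing notes and as version 10.7.3.1 in the headers of all 12 scans. A deposited series table also holds log2 values that the authors had normalized to the 75th percentile and the probe median. These differed from the values computed here by a median of 0.00043 and served as an alternative.

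Control spots and the 76 to 110 outlier spots of the 62976 on each array were removed, and no spot was saturated. Spots of 1 probe were averaged on the log2 scale and the array's 75th percentile was subtracted. Where a gene had several probes, that with the highest mean signal stood for it. The number of arrays limits the precision. Differences between days and between siRNAs were tested with limma 3.58.1 (R 4.3.3) in 1 fit over all 12 arrays, two-sided, with Benjamini-Hochberg adjustment over all 29664 tested probes. A call needed an adjusted p below 0.05 and a change of at least 2-fold, and intervals and SEs are those of this fit. Of the tested probes, 10 lacked a value on a siBach1 array, and none of these stood for a gene in the lists. Tested on simulated data for the siBach1 days, the fit called 89% of changes of 1.5 and 95% of changes of 2.5 on the log2 scale. There were 3 false calls among the unchanged of 29664 probes. The simulated noise was independent between arrays and only 200 probes were changed. The real deviations correlated between arrays and far more probes were called, so these shares need not hold for the real data. Tables and figures were made with Python 3.11.15, numpy 2.4.6, pandas 2.3.3 and matplotlib 3.10.9.

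Replicate numbers are shared by all groups. Deviations from group means correlated at 0.142 to 0.595 for all 18 same-number pairs and at -0.442 to 0.264 for pairs of different numbers. Numbers 1 and 2 lay on slide 1 and number 3 on slide 2. Different-number pairs of 1 and 2 were all positive (0.10 to 0.264), and those with number 3 were all negative. Each number lay in 1 row of 1 slide, so a pairing of samples cannot be told apart from the place on the slides. The fit with the number as a block was an alternative, with values given only where a call changed. Other alternatives were quantile normalization, normexp correction (offset 50), filters, the slide, 1 slide alone, leaving out each array and the t-test of the study's methods.

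The genes and the 25 lists were chosen with earlier results of these data known. By rule, the text names Bach1, Hmox1, Myog, Acta1 and Fbxo32, the 10 largest rises and falls, the 3 largest changes of each list, members called against their list, called differences, up to 8 genes outside the lists with the largest differences and members of regulatory lists by role. Further genes, among them Mcm5, Cdc20, Cacna1s, Chrng, Cav3, Ptbp1 and the genes named only for a block result, were chosen after their values were seen. Promoters came from RefSeq tables (GRCm38.p6), where 1 promoter per symbol was used. Motif shares are given only for gene sets of which at least 80% had a promoter. Probes were assigned to genes by RefSeq symbol where their accession matched (33465 probes) and otherwise by the symbol of the deposited table. Of the matched probes, 31840 had the same symbol in both. A few genes that the rule would name are not reported here.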

Additional observations from a re-analysis of the deposited data

Results flagged for a closer look

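Several genes changed over differentiation by different amounts in siBach1 and siControl cells, by the test of the difference itself (limma, adjusted p below 0.05 and at least 2-fold). Each value here is the siBach1 change minus the siControl change on the log2 scale, over 3 arrays per group.

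Among the genes described above, the difference was 3.75 for Synm, 3.43 for Gsta2, 2.84 for Mgst2, 2.5 for Hba-a2, 2.47 for Hba-a1, 2.30 for Fbxo40 and 1.85 for Slc2a4. It was 1.28 for Lpl, 1.19 for Nppb, 1.16 for Cdc45, 1.15 for Obsl1 and 1.00 for Gsta4. It was negative for Oas1a (-2.99), Sox8 (-2.28), Casq1 (-2.19), Cdkn1c (-1.96), Igfbp3 (-1.81), Ccl5 (-1.65), Pdlim3 (-1.48), Dok7 (-1.38), Vgll2 (-1.29) and Pvalb (-1.14).

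Among the largest changes, Tceal5 rose by 6.59 in siBach1 and 4.69 in siControl cells, a difference of 1.90 (adjusted p = 0.026) that was not called without the siBach1 day 0 replicate 2 or 3, the siBach1 day 2 replicate 1 or 2, the siControl day 0 replicate 2 or the siControl day 2 replicate 1 or 3 array (1.71 to 1.99). Prr9 fell more in siBach1 cells, by -2.33 (adjusted p = 0.011), from day 0 means of 2.86 in siBach1 and 0.75 in siControl cells. The Prr9 difference was not called without the filter on dim probes (adjusted p = 0.067). Prl2c3 fell less, by 1.34 (adjusted p = 0.039), and kept its call only on leaving out the siBach1 day 0 replicate 2 or the siControl day 2 replicate 3 array (1.19 to 1.49 without each of the others). The Prl2c3 difference was 0.18 (adjusted p = 0.68) after normexp correction and 1.27 (adjusted p = 0.071) after quantile normalization, and was called after neither. Outside the gene lists, the difference was 3.37 for Npr3, 3.35 for Gm10639, 3.29 for Hpgd, 3.18 for Crym, 2.91 for 2310002L09Rik, 2.86 for Mfng, 2.84 for Ido1 and 2.76 for Gm4524. Crym, the thyroid hormone-binding crystallin mu, reached a mean of 2.05 at day 2 of siBach1 and -0.37 at day 2 of siControl. It was well above background on 1 of 3 siBach1 and 2 of 3 siControl day 0 arrays, and its difference was not called without the filter on dim probes (adjusted p = 0.057). Mfng, Ido1, Gm4524 and 2310002L09Rik were not well above background on any siBach1 day 0 array, so that their differences are between measured values near background and not bounds, and Hpgd was not well above background on any siControl day 2 array. After normexp correction the difference was 0.42 for Gm4524 (adjusted p = 0.28), 0.87 for Hpgd and 0.90 for Ido1, and none of these was called. It was 1.31 for Mfng, 1.73 for 2310002L09Rik and 2.25 for Crym, and these were still called. The Mfng difference was not called without the siBach1 day 0 replicate 2, the siBach1 day 2 replicate 2 or 3, the siControl day 0 replicate 2 or the siControl day 2 replicate 1 or 3 array (2.61 to 3.01), nor that of Ido1 without the siControl day 0 replicate 1 or day 2 replicate 1 array (2.76 and 2.77). Gm10639 fell by 2.83 in siBach1 cells against a siControl change of -6.18.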

How the results depend on the processing

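The 3 arrays per group and 2 slides limit these results, and signals near background give only bounds. Of 348 called changes between the siBach1 days, the calls lost were 30 after normexp correction, 15 after quantile normalization, 7 within slide 1, 7 with the methods' t-test and 4 to 10 on leaving out a siBach1 array. The replicate block, which groups same-numbered arrays, gave 3307 higher and 2890 lower probes and lost none of these calls. Of 33 called differences from siControl, 20 lost their call without the filter on dim probes, where 56605 probes were tested, 21 within slide 1, which has fewer arrays, 9 after normexp correction and 2 after quantile normalization. Among the list genes and the other differences recomputed with the block, it changed no call beyond those given with a block value in the text.

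Probes called higher numbered 1937 with 1 probe per gene, 1664 after normexp correction, 1946 when well above background on all 6 arrays and 7067 with no fold limit, and those called lower 1512 with 1 probe per gene and 9570 with no fold limit. Leaving out 1 array gave 3045 to 3486 higher and 2711 to 3072 lower. Differences in favour of siBach1 numbered 34 with no filter, 118 after normexp correction, 67 within slide 1, 708 with no fold limit and 164 to 343 with 1 array left out. Those in favour of siControl numbered 15 with no filter, 28 within slide 1, 653 with no fold limit and 82 to 128 with 1 array left out. Higher calls were 68.1% of the called differences and 56.5% after normexp correction. The causes were not tested.

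After quantile normalization 1 myogenic factor, 1 thin filament, 1 Z-disc, 0 Foxo, 2 osteoblast, 1 smooth muscle and 0 reference genes were lower, and 1 osteoblast and 1 leukocyte gene higher. With no filter 2 interferon and 1 smooth muscle genes were lower and 1 osteoblast gene higher. In a fit of the 6 siBach1 arrays 2 Foxo genes were lower, and with all probes of a gene averaged 0 coupling and 0 dystrophin genes were. With 1 array left out the lower counts ran from 0 to 2 for adhesion and from 0 to 1 for thin filament, dystrophin, Foxo and smooth muscle genes, and the higher counts from 1 to 2 for adipocyte, 1 to 3 for osteoblast, 3 to 5 for cardiac and 0 to 1 for leukocyte genes.

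Signs turned only for values that were not called. After quantile normalization Dok7 was 0.12, E2f2 0.16, Myod1 0.017, Myf6 -0.20, Sox8 -0.20 and the Hmox1 difference 0.099. After normexp correction Myf6 was -0.017 and Sox8 -0.11, and within slide 1 they were -0.059 and -0.30. With 1 array left out Myf6 ran from -0.10 to 0.11 (-0.041 without the siBach1 day 2 replicate 2 array), Sox8 ran from -0.22 to 0.13 and Oas1a from -0.56 to 0.26.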
